A study of Mus musculus with 4 samples.

Results

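The strain-informative genes Nnt, Ifi202b and Tpm3-rs7 were followed through single cells of transplanted mouse hearts. The genes were picked by symbol because their levels are held to differ between C57BL/6 and other strains, so 3 of the 30905 genes listed are described, and their levels are a description with no test. The study grafted hearts into the abdomen of C57BL/6J recipients and collected the grafts on day 5. The allogeneic group holds 2 Balb/C hearts and the syngeneic group 2 C57BL/6J hearts, all from adult male mice with no transgene or drug named. Each graft was dissociated and sequenced as 1 library of 3′ tags on the 10x Chromium platform, in which each captured molecule is counted once by its UMI (unique molecular identifier). Donor cells of an allogeneic graft are therefore Balb/C and its infiltrating cells C57BL/6J, whereas in a syngeneic graft donor and recipient are of the same strain and cannot be told apart by strain.

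The deposited matrix merges the 4 libraries as barcode suffixes 1 to 4, and neither the labels nor the files pair a suffix with a graft. The libraries are therefore called library 1 to library 4, none was assigned to a group, and no value was averaged or tested across them. Intervals are 95% and cover counting error only. The libraries held 13112, 13907, 13500 and 13305 barcodes with median depths of 4807.5, 4759.0, 6319.0 and 9784.0 UMIs, and 308 barcode sequences occurred in more than 1 library. Graft cells were kept cells with at least 2 UMIs of Cdh5 (endothelial cells), Dcn (fibroblasts), Tnnt2 (cardiomyocytes) or Rgs5 (mural cells) and none of Ptprc, the pan-leukocyte marker CD45. Leukocytes were kept cells with Ptprc and with none of those markers at that level. There were 7763, 6094, 6787 and 898 graft cells and 402, 2494, 965 and 7923 leukocytes in libraries 1 to 4. All 12 further markers checked, such as Pecam1, Col1a1, Myh6 and Kcnj8, were highest in the cells their own marker had gated.

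Before the levels are given, 1 fact of the labels bears on them. Balb/C is the donor strain of 2 of the 4 grafts, while the high levels of Ifi202b and Tpm3-rs7 described here occurred in the graft cells of 1 of the 4 libraries, library 4. Which graft that library or any other came from was not worked out from these levels.

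As background, inbred mouse strains carry fixed differences in sequence, and a gene that is deleted, silenced or duplicated in a strain marks every cell of that strain. In a transplant between strains such a gene can mark donor and recipient cells in the same tissue. Nnt encodes the nicotinamide nucleotide transhydrogenase of the inner mitochondrial membrane, which makes mitochondrial NADPH from NADH, and C57BL/6J mice carry an internal deletion of several of its exons. Ifi202b encodes an interferon-inducible protein of the Ifi200 (HIN-200) family of DNA-binding proteins, with a low level in C57BL/6 mice. Tpm3-rs7 is an intronless copy of Tpm3, the gene of an actin-binding tropomyosin.

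In the GENCODE M21 annotation of GRCm38 (mm10), Nnt lies on chromosome 13 from 119335448 to 119408997 on the minus strand. Ifi202b lies on chromosome 1 from 173962568 to 173982744, also on the minus strand, as a transcript of 7 exons. Tpm3-rs7 is a single exon on chromosome 14 from 113314608 to 113316754 on the plus strand, and its parent Tpm3 lies on chromosome 3 from 90072649 to 90100902. The annotation carries the tag retrogene for Tpm3-rs7.

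The copy and its parent are shown first because the counts of Tpm3-rs7 rest on telling them apart. The Tpm3-rs7 transcript of 2147 bases aligned to the transcript Tpm3-201 over 2108 bases at 99.10% identity with 13 mismatches. In the 744 coding bases 3 positions differed, and all of them lay in the stretch printed here from coding base 8 to base 127, 5′ to 3′ on the sense strand, with the differing bases in capitals.
Tpm3-rs7: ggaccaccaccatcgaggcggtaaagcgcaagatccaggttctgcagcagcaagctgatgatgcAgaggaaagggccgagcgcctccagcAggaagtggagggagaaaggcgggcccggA
Tpm3: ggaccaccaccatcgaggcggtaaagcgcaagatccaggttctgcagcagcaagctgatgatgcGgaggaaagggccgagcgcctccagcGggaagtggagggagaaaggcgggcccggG
The 1291 aligned bases after the stop codon, where 3′ tags fall, held 10 mismatches. Reads that cover none of these positions do not tell the copy from its parent, so UMIs of Tpm3-rs7 are uncertain as a measure of that locus alone. All libraries were counted against the same genome, so the uncertainty applies to each of them, though it need not be equal among them. Whether reads were split alike between copy and parent in every library, or in cells of either strain, was not tested.

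For Ifi202b the promoter is shown because the gene is induced by interferons. RefSeq gives it on GRCm38.p6 at chr1:173982795-173983094, minus strand, and 1 of the 3 genes had an entry. Capitals mark the letters TTCNNNGAA, the core of the gamma-activated site bound by STAT factors, which reads the same on either strand.
Ifi202b: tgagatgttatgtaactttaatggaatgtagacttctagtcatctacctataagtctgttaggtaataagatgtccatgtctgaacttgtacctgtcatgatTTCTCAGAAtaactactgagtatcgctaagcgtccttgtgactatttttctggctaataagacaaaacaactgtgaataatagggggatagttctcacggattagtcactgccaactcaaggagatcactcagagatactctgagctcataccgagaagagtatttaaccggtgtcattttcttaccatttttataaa
These letters occurred in 8.30% of the 32851 promoter windows in the table. The core of the interferon-stimulated response element, GAAA, 2 bases of any kind and GAAA, was searched on both strands and is not in this window, and it occurred in 3.44% of all windows. A match is a description of the letters only.

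Nnt, the mitochondrial member, was sparse in all libraries, with a UMI in 1.51, 1.41, 2.18 and 1.56% of graft cells of libraries 1 to 4. In graft cells its level was 1.99 CPM (UMIs per 1000000 non-mitochondrial UMIs of the same cells) in library 1 (121 UMIs, interval 1.65 to 2.37), 1.43 in library 2 (90 UMIs, 1.15 to 1.76), 1.91 in library 3 (157 UMIs, 1.62 to 2.23) and 1.18 in library 4 (14 UMIs, 0.647 to 1.99). In leukocytes it was 1.58, 1.15, 1.60 and 0.993 CPM from 6, 22, 16 and 107 UMIs. Library 1 was the highest and library 4 the lowest in graft cells, with a ratio of 1.68 and an interval of 0.963 to 3.16 that includes equal levels. Some alternative settings gave intervals above equal levels, at 1.39 (1.05 to 1.84) without library 4 and 1.90 (1.10 to 3.57) without the cell filter. Gates at 5 UMIs of a graft marker and 3 of Ptprc gave 1.49 (1.11 to 2.00). The other settings computed included equal levels. No interval allows for picking the highest and lowest library. Graft cells over leukocytes gave ratios of 1.26, 1.24, 1.19 and 1.19 in libraries 1 to 4, and each interval included equal levels. With the gates at 5 and 3 UMIs the ratio of library 4 was 1.74 (1.14 to 2.60). At the main settings neighbours in the order of the 8 levels did not differ beyond counting error. This covers neighbours only. The ends of the order were graft cells of library 1 at 1.99 CPM (1.65 to 2.37) and leukocytes of library 4 at 0.993 CPM, below that interval.

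The gene list holds 2 rows named Nnt, and this bears on those low values. The row ENSMUSG00000025453 held 767 UMIs in 732 of the 53824 barcodes, and the row ENSMUSG00000116207 held 0. In the annotation the second gene lies from 119335528 to 119408952 on the same strand, inside the first. All of its 3339 exonic bases are also exonic in the first gene, which makes 47.4% of the 7037 exonic bases of the first. Cell Ranger counts a read only where it is compatible with the exons of a single gene, so reads that fall within shared exons alone go to neither row. What is left for the first row are 3698 bases in 5 stretches, 80 of which lie at its 3′ end. The share of Nnt molecules lost in this way was not tested. The deletion of C57BL/6J lies inside the gene, away from the 3′ end. Where in the gene the counted UMIs fell was not examined, so they were not used to check the deletion.

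**Figure D1:**
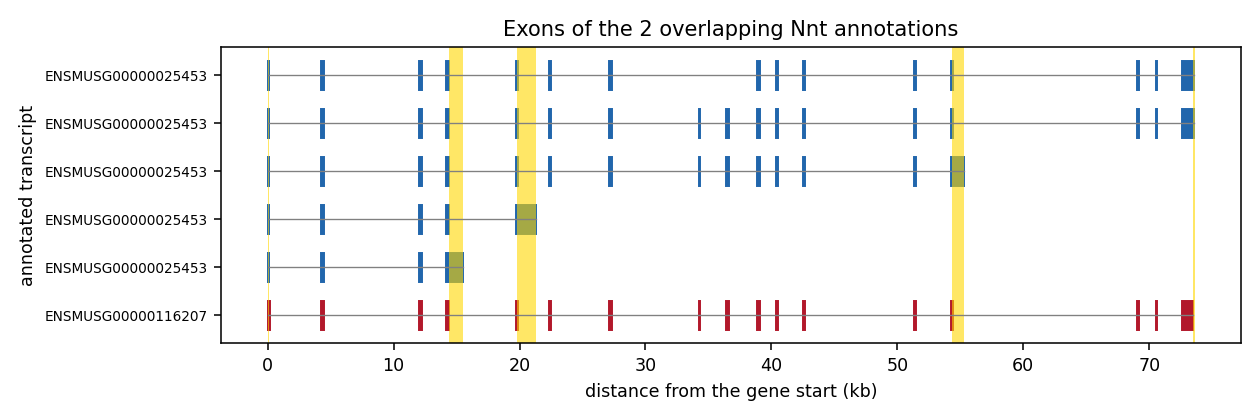
Exons (boxes) of the annotated transcripts of the 2 overlapping Nnt genes by distance from the gene start in kilobases; blue is ENSMUSG00000025453, red ENSMUSG00000116207, and short exons are drawn at a minimum width. Yellow marks the 5 stretches that belong to the first gene alone, and every red exon lies within blue exons.

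A single transcript of mitochondrial upkeep being so sparse, the list of its functional partners gives the wider view. Of the 16 genes of mitochondrial NADPH and peroxide handling, 1 passed a 4-fold range between the highest and lowest library in graft cells. Ranges had 10 added to each level, and 3.49% of the 14359 genes with at least 200 UMIs passed. The median range was 1.50-fold in the list against 1.37-fold over all genes. The gene of the list that passed was Sod2, the mitochondrial superoxide dismutase, at 128, 369, 92.2 and 614 CPM in libraries 1 to 4. In Cdh5 cells its range was 2.49-fold, and in leukocytes it stood at 148, 991, 152 and 1086 CPM. The part of leukocyte transcripts in the Sod2 level of graft cells was not tested. Gpx1 and Gpx4, both glutathione peroxidases, stood at 323, 364, 369 and 408 and at 518, 326, 535 and 362. In leukocytes 3 of the 16 passed the same range, beside 4.22% of all genes.

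Ifi202b was high in the graft cells of library 4 and at or near 0 elsewhere. Graft cells of library 1 held 9 UMIs in 9 of 7763 cells, or 0.148 CPM (0.0676 to 0.280). Library 2 held 26 UMIs in 5 of 6094 cells, or 0.414 CPM (0.270 to 0.607). Library 3 held 0 UMIs in 6787 cells, which allows a share of cells with a UMI of up to 0.0442% and a level of up to 0.0365 CPM. Library 4 held 2513 UMIs in 502 of 898 cells, or 212 CPM (204 to 221). The library 4 level was at least 5825-fold higher than that of library 3, taking 3 counts as the floor of the latter. Without library 3 the ratio of the highest to the lowest library was 1438, and without library 4 it was at least 11.4.

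In all, 2 of the 3 genes, Ifi202b and Tpm3-rs7, passed the 4-fold range in graft cells, a range that 3.49% of the 14359 genes with at least 200 UMIs passed. The members were chosen for such a difference, so nothing is read from that count. In leukocytes 0 of the 3 passed, and 4.22% of all genes did. Within Cdh5 cells and within Dcn cells the same 2 genes passed, beside 2.68 and 4.76% of all genes. There was no replicate of a known group and no p-value behind any of these counts.

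**Figure D2:**
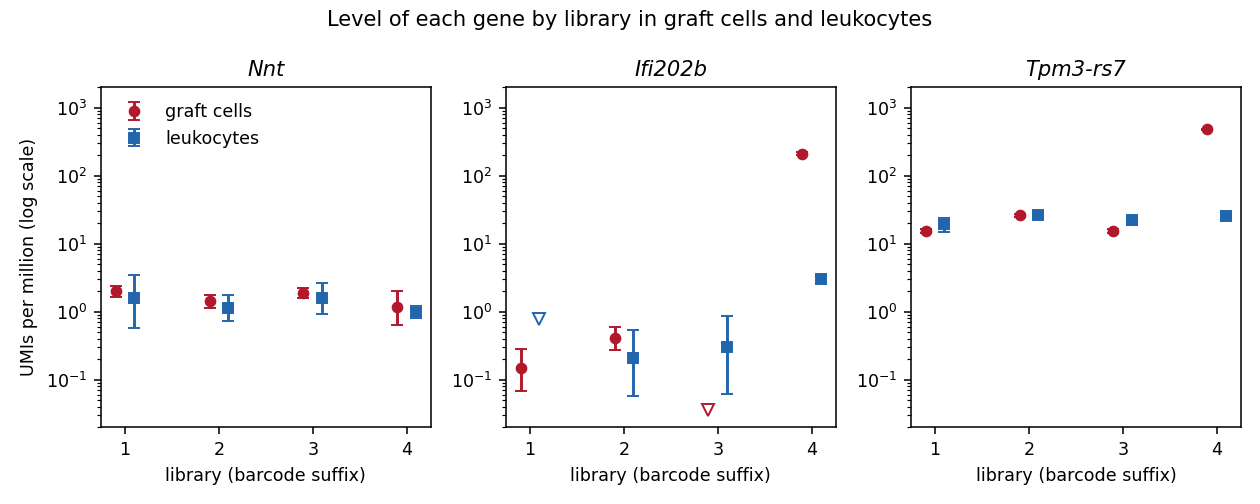
CPM on a log axis for each gene in graft cells (red circles) and leukocytes (blue squares) of libraries 1 to 4; bars are 95% Poisson intervals, and open triangles mark the level of 3 UMIs where none was counted. Ifi202b stood at 212 and Tpm3-rs7 at 479 in graft cells of library 4, while the leukocytes of that library stood at 3.0 and 25.9.

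The share of graft cells with an Ifi202b UMI was 55.9% in library 4 (52.6 to 59.2%), with a median depth of 7957.5 UMIs. It was 0.116% in library 1 and 0.0820% in library 2, at median depths of 5634.0 and 6302.5. With each cell thinned to 1000 UMIs and shallower cells left out (549, 414, 211 and 99 cells in libraries 1 to 4), the shares were 0, 0.0352, 0 and 14.3%. Cells of library 4 with an Ifi202b UMI had a median depth of 14570 UMIs and those without one 2124, so detection moved with depth. In 178 of the 898 cells there were 5 or more Ifi202b UMIs, and the highest cell held 41.

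All kinds of graft cell shared the pattern. In Cdh5 cells, the endothelial gate, Ifi202b stood at 181 CPM in library 4 (888 UMIs in 423 cells) and at 0 UMIs in the 3107, 3582 and 3132 cells of libraries 1 to 3. The library 4 level was at least 1272-fold, 1932-fold and 1951-fold higher than theirs. In Dcn cells, the fibroblast gate, it stood at 0.306, 1.19, 0 and 245 CPM. In Rgs5 cells it stood at 189 CPM in the 39 cells of library 4 and at 0 UMIs in each of the others. Tnnt2 cells were shallow, with a median of 969 UMIs in library 4, and gave 8 UMIs in 121 cells, or 40.7 CPM (17.6 to 80.1), against 0 UMIs in libraries 1 to 3.

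**Figure D3:**
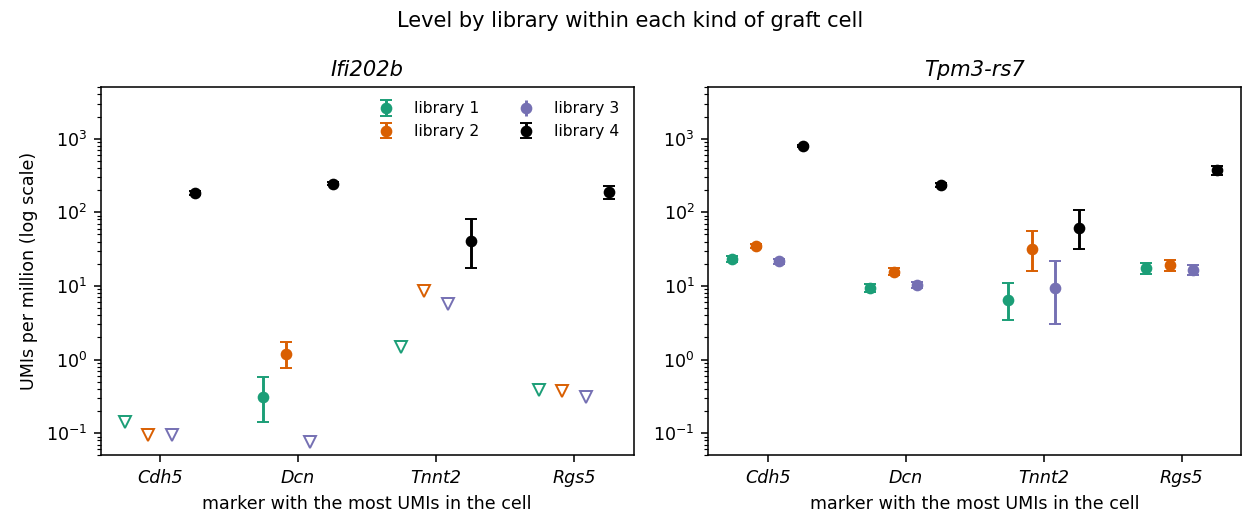
CPM on a log axis for Ifi202b and Tpm3-rs7 in graft cells split by the marker with the most UMIs, with libraries 1 to 4 side by side; bars are 95% Poisson intervals and open triangles the level of 3 UMIs where none was counted. Library 4 was the highest in each of the 4 kinds of cell for either gene, though its interval for Tpm3-rs7 in Tnnt2 cells, 31.5 to 107, overlapped that of library 2, 15.8 to 56.5.

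Leukocytes of library 4 held far less Ifi202b than its graft cells. Leukocytes gave 0 UMIs in library 1, 4 in library 2 (0.210 CPM), 3 in library 3 (0.301) and 323 in library 4 (3.0 CPM, interval 2.68 to 3.34). Within library 4 graft cells stood 70.8-fold above leukocytes (63.1 to 79.8), and 34.7-fold (23.7 to 52.0) with each cell thinned to 1000 UMIs. In library 2 the ratio was 1.98 with an interval of 0.685 to 7.79. With 10 CPM added to each level, Ifi202b and Tpm3-rs7 were the members at least 4-fold higher in graft cells than in leukocytes of library 4, as were 4.61% of all genes. In libraries 1, 2 and 3 no member was, and 4.89, 4.04 and 5.27% of all genes were.

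RNA freed from broken cells reaches all droplets, so the leukocyte level of library 4 was set beside genes of graft cells. Leukocyte Ifi202b was 1.41% of the graft cell level. Col1a1, Bgn and Pdgfra, all of fibroblasts, stood at 0.988, 0.845 and 0.848% of theirs, and the endothelial genes Gpihbp1 and Kdr at 0.916 and 3.18%. Pecam1, which leukocytes also express, stood at 7.16%. Ifi202b thus lay above 4 of these genes and below Kdr and Pecam1. The share of leukocytes with an Ifi202b UMI was 3.02% at a median depth of 12949 UMIs. How much of it came from free RNA was not tested. In the 14 leukocytes of library 4 gated by resident macrophage markers Ifi202b stood at 13.4 CPM from 4 UMIs, and their Tpm3-rs7 share of the UMIs with Tpm3 was 13.4% (8.16 to 20.4%). The intervals overlapped between the macrophages of library 4 (2.56 CPM), T cells (1.91) and granulocytes (4.17), gated by transcripts of C1q, of Cd3 and of Csf3r, Retnlg and Cxcr2.

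Since Ifi202b answers to interferons, its relatives and the interferon response genes were counted over the same cells. Of the 14 other Ifi200 genes 11 were listed, and 10 of the 11 were highest in graft cells of library 4. The share of all genes highest in those cells was not counted, so nothing is read from the 10. In graft cells 5 of the 11 passed the 4-fold range, beside 3.49% of all genes, and 4 of the 5 were highest in library 4. The median range was 2.44-fold against 1.37-fold over all genes. In leukocytes 8 of the 11 passed, beside 4.22% of all genes. Ifi203 stood at 242, 31.8, 185 and 489 CPM in libraries 1 to 4, and Mndal at 182, 30.3, 158 and 371. Ifi204, which takes part in DNA sensing, stood at 71.7, 30.5, 34.0 and 323. In leukocytes, where Ifi202b reached 3.0 CPM at most, Ifi204 stood at 109, 89.4, 136 and 389.7. Other relatives were scarce in graft cells, among them Ifi214 with 1, 0, 2 and 7 UMIs in libraries 1 to 4. The part of leukocyte transcripts in the levels of all these relatives in graft cells was not tested. Ifi205, the closest coding relative by sequence at 78.57% identity over 616 bases, stood at 161, 70.2, 26.2 and 47.7 in graft cells, with library 1 the highest.

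The interferon lists differed between the libraries as well. Among 12 type I interferon response genes 10 passed the 4-fold range in graft cells and 9 were highest in library 4. Among 8 interferon gamma response genes 7 passed and 7 were highest there. The share of all genes highest in library 4 was not counted, so nothing is read from the counts of highest genes. The median ranges of these lists were 6.70-fold and 28.9-fold against 1.37-fold over all genes, of which 3.49% passed. In leukocytes 9 of the 12 and 8 of the 8 passed, beside 4.22% of all genes. Cxcl9, a chemokine for T cells, stood at 217, 12.0, 88.0 and 6027 CPM in graft cells and at 165, 0.943, 28.5 and 2457 in leukocytes. Iigp1, an interferon-induced GTPase, stood at 769.5, 32.5, 412 and 2422 and at 39.0, 1.89, 12.7 and 475. Irf1, a transcription factor of the response, stood at 741, 156, 398 and 557 in graft cells, with library 1 the highest. Of the type I genes the most abundant were also highest in library 1, the antiviral gene Rsad2 at 253, 44.8, 167 and 136, Isg15 at 282, 34.4, 72.4 and 111 and Ifit1 at 242, 16.2, 73.4 and 162. In graft cells and leukocytes of library 4 Ifi202b stood at 212 and 3.0 CPM. The part of interferon in the Ifi202b level was not tested.

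Aim2, the Ifi200 member that starts an inflammasome on DNA, stood at 6.91, 4.30, 5.46 and 17.3 CPM in graft cells. Of 5 inflammasome partners 1 passed the 4-fold range in graft cells, with a median of 2.89-fold, and 1 in leukocytes. Over all genes the median was 1.37-fold in graft cells, and 3.49% passed there and 4.22% in leukocytes. The partner that passed in graft cells was Il1b, the cytokine the inflammasome releases, at 11, 164, 12.9 and 150.0 CPM. Leukocytes held 1498 to 5080 CPM of Il1b, with library 2 the highest there too. The summed level of 5 granulocyte markers in graft cells was 36.3, 2304, 45.6 and 52.5 CPM, and that of 4 markers of infiltrating monocytes 39.1, 104, 38.3 and 729. The part of leukocyte transcripts in the Il1b level of graft cells was not tested. The partner that passed in leukocytes was Casp1, the inflammasome protease, at 44.0, 15.7, 46.1 and 163 CPM. In graft cells Pycard, the adaptor, stood at 34.4, 28.9, 39.8 and 97.5, and Gsdmd, the pore-forming gasdermin, at 33.3, 22.7, 28.6 and 97.3.

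Tpm3-rs7 was counted in all libraries and was highest in graft cells of library 4. Graft cells gave 15.3 CPM in library 1 (929 UMIs, 14.3 to 16.3), 26.3 in library 2 (1650 UMIs, 25.0 to 27.6), 15.5 in library 3 (1274 UMIs, 14.6 to 16.4) and 479 in library 4 (5670 UMIs, 467 to 492). Libraries 1 and 3 did not differ beyond counting error, library 2 lay above them, and library 4 was 31.4-fold above library 1 (29.3 to 33.7). Without library 4 the range was 1.72-fold. Leukocytes gave 19.2, 26.6, 22.0 and 25.9 CPM, so the 4 libraries lay within a narrow band there.

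Within library 4 graft cells stood 18.5-fold above leukocytes in Tpm3-rs7 (17.7 to 19.4). The ratio was 0.793 in library 1 (0.624 to 1.02), 0.987 in library 2 (0.893 to 1.09) and 0.705 in library 3 (0.611 to 0.818). In the first 3 libraries graft cells were thus at or below leukocytes. The share of graft cells with a Tpm3-rs7 UMI was 10.5, 21.1, 15.7 and 71.8% in libraries 1 to 4, and 1.48, 2.59, 1.55 and 35.3% at 1000 UMIs a cell.

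By kind of cell, the endothelial gate was the richest in Tpm3-rs7. Cdh5 cells stood at 23.2, 35.1, 21.5 and 808 CPM in libraries 1 to 4, Rgs5 cells at 17.5, 19.0, 16.5 and 376, and Dcn cells at 9.36, 15.5, 10.3 and 236. The levels ran in the order Cdh5, Rgs5, Dcn in each library, though the intervals of Rgs5 and Dcn cells overlapped in library 2. Rgs5 cells also held endothelial transcripts, and their part in this order was not tested. Library 4 stood 34.9-fold, 23.0-fold and 37.7-fold above libraries 1, 2 and 3 in Cdh5 cells and 25.3-fold, 15.2-fold and 23.0-fold in Dcn cells.

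Tpm3 itself was lowest in graft cells of library 4. It stood at 500.1, 754, 455 and 335 CPM in graft cells of libraries 1 to 4 and at 461, 695, 497 and 590.5 in leukocytes. The summed level of the gene and its copy in graft cells was 515, 779.9, 471 and 814 CPM, so library 4 lay close to library 2. None of the 4 tropomyosin genes Tpm1, Tpm2, Tpm3 and Tpm4 passed the 4-fold range in graft cells, with a median of 2.32-fold. In leukocytes Tpm2 did, at 107, 30.9, 27.1 and 3.31 CPM. Over all genes the median was 1.37-fold in graft cells, where 3.49% passed, and 4.22% passed in leukocytes. In graft cells Tpm1 stood at 820.2, 333, 429 and 477 and Tpm4 at 284, 789, 472 and 439.5.

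The share of Tpm3-rs7 in the summed UMIs of the pair sets the copy against its parent within the same cells. In graft cells it was 2.96% (2.77 to 3.15%), 3.37% (3.21 to 3.53%), 3.29% (3.11 to 3.47%) and 58.9% (57.9 to 59.8%) in libraries 1 to 4. In leukocytes it was 4.0, 3.69, 4.23 and 4.20%. The leukocyte intervals overlapped except those of library 2 (3.38 to 4.01%) and library 4 (4.05 to 4.35%). The share of library 4 was near equal in Cdh5 cells (59.9%), Dcn cells (57.7%) and Rgs5 cells (58.0%). It was 17.1% in Tnnt2 cells, from 70 UMIs of the pair and with an interval of 9.18 to 28.0%. Tnnt2 cells of library 4 also held 1363 CPM of macrophage and 1454 CPM of infiltrating monocyte markers, beside 3096 CPM of cardiomyocyte markers. The part of leukocyte transcripts in their lower share was not tested.

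Single cells separated along this share. Of graft cells with at least 10 UMIs of the pair, 343 of 365 in library 4 had a share of 40% or more, with a median of 60%. In libraries 1 to 3 none of 860, 1753 and 1240 such cells did, and the highest cells stood at 30.8, 30.0 and 25.0%. Of leukocytes 0 of 51, 0 of 473, 0 of 151 and 6 of 2955 did. The 10-UMI minimum and the 40% limit were chosen after the data were seen.

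**Figure D4:**
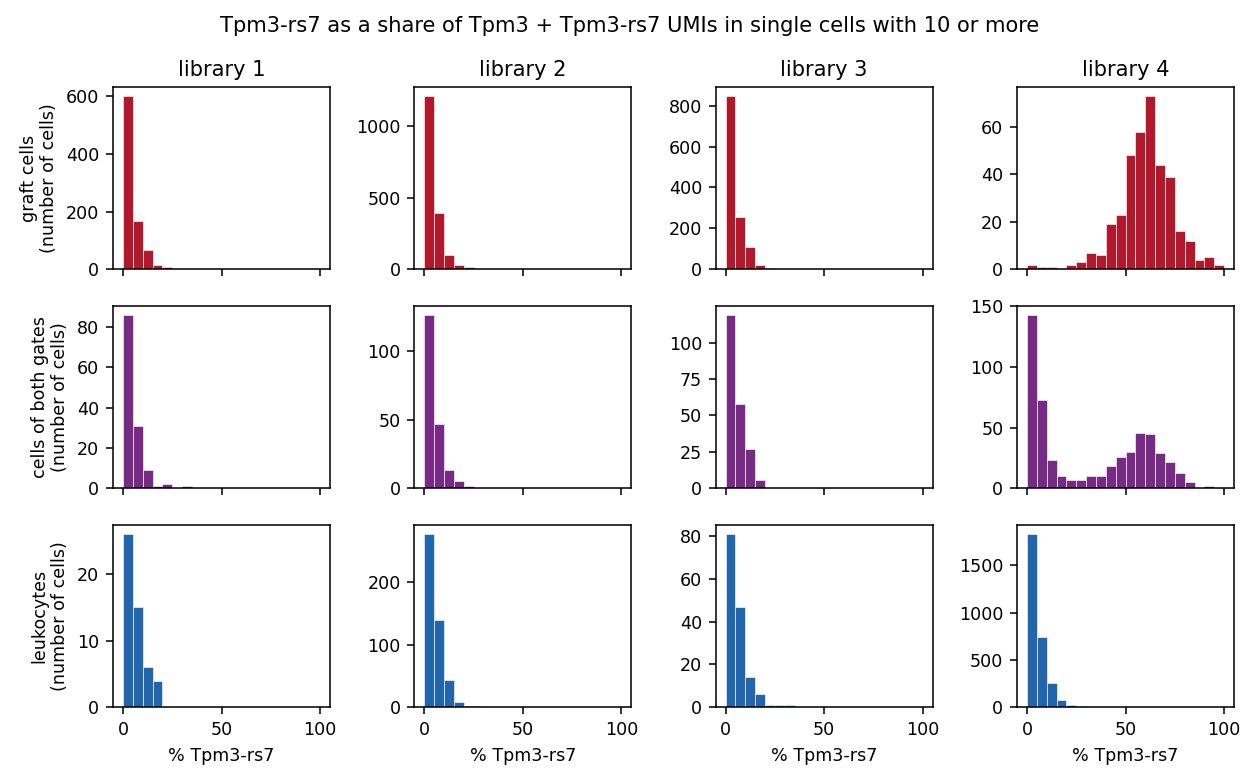
Number of cells (vertical axes differ) by the percent of Tpm3 and Tpm3-rs7 UMIs that were Tpm3-rs7, in cells with 10 or more UMIs of the pair, for graft cells, cells of both gates and leukocytes of libraries 1 to 4. Graft cells of library 4 centred on 60%, its leukocytes stayed near 0, and its cells of both gates fell into a low and a high group.

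Cells of both gates carried a graft marker and Ptprc together, and simulated doublets had been left out of them. In library 4 there were 911, and their pooled share was 33.5%, between its leukocytes and its graft cells. Of the 519 with at least 10 UMIs of the pair, 249 lay under 20%, 34 from 20 to 40% and 236 at 40% or more. Ifi202b in these cells stood at 114 CPM in library 4 and at 0, 0.336 and 0 in libraries 1 to 3. In libraries 1 to 3 none of 130, 193 and 210 such cells reached 40%.

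The 6 leukocytes of library 4 with a high share were looked at singly, after their values were seen. In 5 of them the share ran from 51.2 to 63.6%, with 7 to 22 Ifi202b UMIs, 415 to 1021 UMIs of the complement genes C1qa, C1qb and C1qc, and 14 to 61 UMIs of the resident macrophage markers Folr2, Mrc1, Cbr2 and Lyve1, at depths of 26946 to 47794 UMIs. They held 10 to 25 Ptprc UMIs and at most 1 UMI of the 4 graft markers. These 5 cells also held 3 to 15 UMIs of Ly6c2 and Plac8, markers of infiltrating monocytes. None of them therefore fell among the leukocytes gated above by resident macrophage markers. The sixth held 9 Tpm3-rs7 UMIs, 1 Tpm3 UMI, no Ifi202b and 6 UMIs of Pecam1, Kdr and Gpihbp1 at 3548 UMIs. The 6 cells held 71 of the 323 Ifi202b UMIs of library 4 leukocytes, and without them the leukocyte level was 2.34 CPM (2.06 to 2.65). The 6 cells were picked by their Tpm3-rs7 share, so their likeness to graft cells of library 4 in Tpm3-rs7 was set by that choice. Ifi202b was no part of the choice, and each of the 5 cells held it while carrying macrophage transcripts. Whether droplets with more than 1 cell are among them was not tested.

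Ifi202b and Tpm3-rs7 were found in the same cells of library 4. Of its 898 graft cells 470 held both, 175 Tpm3-rs7 alone, 32 Ifi202b alone and 221 neither. Of cells with Ifi202b 93.6% held Tpm3-rs7, against 71.8% of all, and detection of either moved with depth. In leukocytes of library 4 the same share was 32.2%, against 26.2% of all.

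The genes whose pattern came closest were sought over 19 groups, made of 5 kinds of cell in 4 libraries with at least 50 cells, by Pearson's r of log2(CPM + 10). The groups share libraries, so r is a description. Ifi202b and Tpm3-rs7 correlated with each other at r = 0.92. For Ifi202b the closest were Gm10093 (r = 0.98), Gm10260 (0.97), Gm11361 (0.96) and Gm12166 (0.96), and for Tpm3-rs7 Gm10093 (0.96), Gm12166 (0.94), Gm11361 (0.94) and Gm11127 (0.93).

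Each of these look-alikes is nearly identical to another gene over 67.9% of its length or more. How many of all genes have such a near copy was not counted, so this is not read as a trait of the pattern. Ifi202b had no such copy among the coding genes of the annotation used, and its closest coding gene, Ifi205, matched at 78.57% over 35.5% of its length. Copies of Ifi202b in the genomes of other strains were not searched for. Gm10093, a processed pseudogene, matched the histone deacetylase gene Hdac1 at 99.38% over 1444 bases. Gm10260 and Gm11361, tagged as retrogenes, matched the ribosomal protein gene Rps18 at 99.08 and 99.26%. Gm12166 matched Sft2d1 at 99.47%. Gm11127, a gene of 6 exons without the retrogene tag, matched Gm7030 at 97.92% over 913 of its 1344 bases. Reads can therefore be split between each of them and its partner, as for Tpm3-rs7, and their counts are uncertain in the same way. For Gm11127 this holds within the matching part only.

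For 4 of the 5 look-alikes the share in the pair was highest in graft cells of library 4. Gm12166 made up 4.88, 4.34, 4.71 and 78.6% of its UMIs with Sft2d1 in graft cells of libraries 1 to 4 and 3.61, 4.73, 4.31 and 5.33% in leukocytes. Gm10093 made up 0.336, 0.349, 0.357 and 34.5% with Hdac1 in graft cells and 0.537% in leukocytes of library 4. Gm10260 made up 8.50% with Rps18 in graft cells of library 4 and at most 0.0340% in those of the other libraries. Gm11361 made up 0.125, 0.115 and 0.133% with Rps18 in graft cells of libraries 1 to 3, between 2.28 and 2.73% (95% interval) in those of library 4 and 0.140% in its leukocytes. No UMI of Gm7030 was counted in these cells, so its pair with Gm11127 gives no comparison of shares. These genes were selected for that likeness, so the values describe them.

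For Nnt the 6 genes of highest r were Heatr5b (0.93), Mlh3 (0.93), Endov (0.92), Fam120b (0.89), Cox15 (0.89) and Sepsecs (0.89). The level of Nnt varied with an SD of only 0.08 on the log2 scale over the 19 groups, and groups with few UMIs listed it at 0. A correlation with so flat and sparse a gene is not read as a finding.

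**Figure D5:**
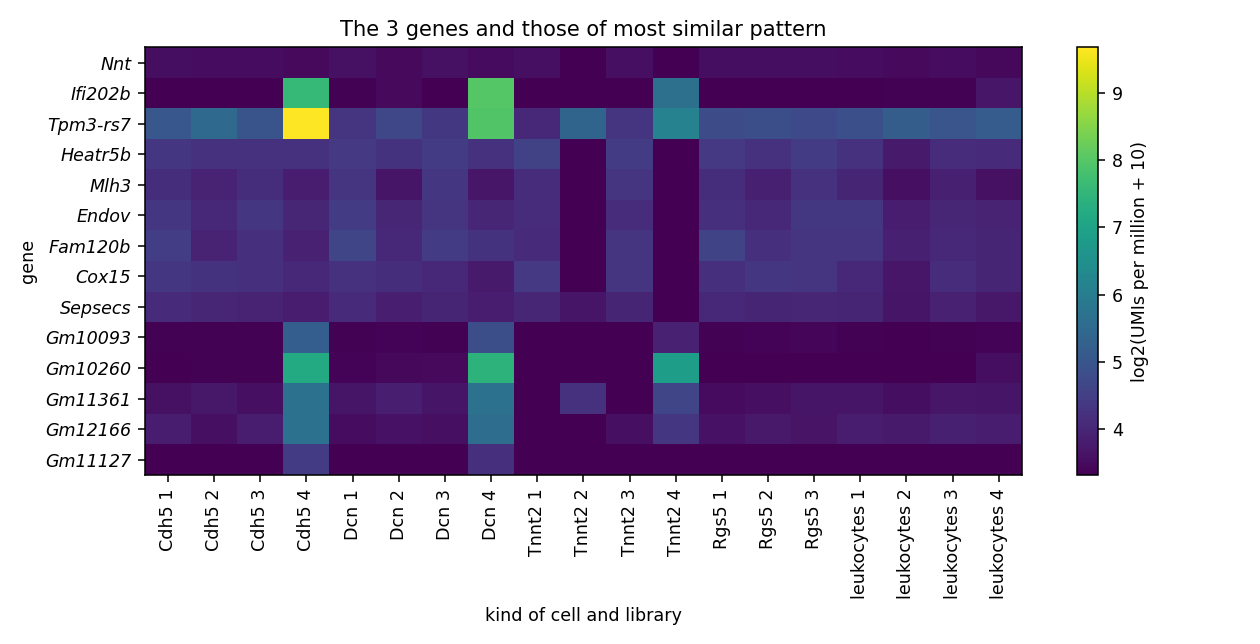
Level as log2(CPM + 10) of the 3 genes and their look-alikes (rows) in the 19 groups of cells (columns, kind of cell and library number). Ifi202b, Tpm3-rs7 and the Gm genes were brightest in Cdh5 and Dcn cells of library 4, whereas Nnt and its look-alikes stayed dark throughout.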

How the data were processed

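Single-cell 3′ RNA libraries were made from 4 mouse heart grafts, 2 allogeneic and 2 syngeneic. According to the study's methods and the file header, the authors aligned reads to mm10 with Ensembl annotation in Cell Ranger 3.0.0 and deposited UMI counts per gene and barcode, merged over the libraries. The submitters' processing notes also name CASAVA 1.8 and Seurat. The genes, gene lists and gates were chosen with earlier results of these data known.

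From the deposited counts, barcodes with over 200 genes and under 20% mitochondrial UMIs were kept (44626 of 53824), and the 5% of each library nearest to simulated doublets were left out, leaving 42395 cells. The doublet marking, an own version of the study's step, used 2000 variable genes, 10 principal components and 50 neighbours. The 3471 cells of both gates and 5598 of neither were kept apart. Levels are UMIs of a gene per 1000000 non-mitochondrial UMIs (CPM), summed over the cells of a gate, with exact Poisson intervals. Shares have exact Clopper-Pearson intervals, and ratios exact conditional binomial intervals. A level of 0 was replaced by a floor of 3 counts in ratios. Ranges over genes add 10 to each level. The 2 Nnt rows were summed. Thinning drew 1000 UMIs from each cell. No test between groups was made, since no barcode suffix is paired with a sample, and cells are not replicates.

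Genes named beside the members are the 6 most alike to Nnt and the 4 most alike to each other member, and up to 3 of each list with the highest level in graft cells, besides Tpm3, Ifi203, Ifi204, Mndal and Aim2. Names outside that rule (the partners of near copies, Casp1, Tpm2, Ifi214, Prg4 and single cells) were chosen after their values were seen. Positions come from GENCODE M21, which is not the Ensembl release the authors used. Near copies were found with blastn 2.17.0 and aligned with Biopython 1.88. Python 3.11.15 was used with numpy 2.4.6, pandas 2.3.3, scipy 1.17.1, scikit-learn 1.9.0 and matplotlib 3.10.9. Scripts were tested on simulated data. Alternatives were other gates, doublets kept, other cell filters, mitochondrial UMIs in the denominator, thinning, leaving out each library and, added after the data were seen, leaving out barcodes found in more than 1 library.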

Additional observations from a re-analysis of the deposited data

Results flagged for a closer look

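Barcodes that failed the filter on genes and mitochondrial UMIs were used in no comparison and still held the 3 genes. They gave 77 Nnt, 80 Ifi202b and 564 Tpm3-rs7 UMIs, above the 3 UMIs that a count of 0 allows. Nnt stood at 7.24, 4.02, 4.48 and 3.34 CPM in these barcodes of libraries 1 to 4, from 28, 5, 34 and 10 UMIs. The intervals lay above those of graft cells in libraries 1 (4.81 to 10.5) and 3 (3.11 to 6.27), and overlapped them in libraries 2 (1.30 to 9.37) and 4 (1.60 to 6.14). Of the 80 Ifi202b UMIs 79 were in library 4, at 26.4 CPM. Tpm3-rs7 stood at 18.1, 31.3, 25.3 and 87.8 CPM, and its share of the UMIs of the pair with Tpm3 was 4.09, 5.07, 5.37 and 15.6%.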

How the results depend on the processing

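Of 114 alternative values for 13 ratios, 103 lay within the counting interval of the reported value, and 11 moved. The 103 include ranges with a library left out that was neither highest nor lowest, which cannot change. Leaving out each library in turn gave 1.39 to 1.68 for the Nnt range in graft cells, at least 11.4 to at least 5825 for that of Ifi202b and 1.72 to 31.4 for that of Tpm3-rs7. Thinned to 1000 UMIs a cell, the Ifi202b range was at least 376 and its ratio of graft cells to leukocytes in library 4 was 34.7. The Tpm3-rs7 ratio of graft cells to leukocytes was then 1.18, 1.26 and 16.1 in libraries 1, 2 and 4, and that of Nnt 3.33 in library 3 and 0 in library 4, where no graft cell kept a UMI. With gates at 5 UMIs of a graft marker and 3 of Ptprc, the Tpm3-rs7 ratio in library 4 was 17.4. Thinning left too few UMIs for the Nnt range and for its ratio in library 1, and Ifi202b ratios of libraries 1 and 3 could not be computed from 9 or fewer UMIs. No paired analysis was possible because no barcode suffix is tied to a graft or its number. Depth limits Nnt, with 14 UMIs in graft cells of library 4 and 6 in leukocytes of library 1.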

Other observations

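The graft cells of the unassigned libraries fell apart in the share of Tpm3-rs7 in the UMIs it makes up with Tpm3, at 2.96, 3.37 and 3.29% in libraries 1, 2 and 3 and 58.9% in library 4. Cells of neither gate, with medians of 1327.5, 1090.0, 1534.0 and 1062.0 UMIs, stood at 4.80, 3.76, 4.04 and 23.4%. In these cells Ifi202b was counted in library 4 alone, with 77 UMIs in 56 of 1003 cells, or 41.2 CPM.

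Most Ifi202b UMIs of library 2 came from 2 fibroblast-gated cells, with 12 and 11 of its 26 UMIs in graft cells. These cells held 406 and 400 UMIs of Prg4, the lubricin of joint and serosal surfaces, 42 and 43 of Dcn and none of Col1a1, and no Tpm3-rs7 beside 8 and 5 Tpm3 UMIs. Their barcodes occurred in that library alone. Their depths were 8410 and 7497 UMIs, and whether both barcodes hold the same cell was not tested. The 422 other graft cells of library 2 with at least 20 Prg4 UMIs held no Ifi202b, nor did the 22 and 69 such cells of libraries 1 and 3. In library 4, 18 of 20 did, with 159 UMIs, and their Tpm3-rs7 share was 61.2%. The 2 cells of library 2 thus carried Ifi202b without the Tpm3-rs7 share seen beside it in library 4. This comparison was chosen after the data were seen.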
